A study of Mus musculus with 4 samples.

Results

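CD8 1 was the largest of the CD8 T cell clusters among CD45+ leukocytes sorted from 20967 melanomas, and it held 571 of the 4108 cells profiled. Its members were all cells under the cluster name CD8 1 in the deposited cell annotation, with no further selection, and no measured value was used here to choose them. The cells came from 10 tumors of the 20967 line, which was derived from a C57BL/6 mouse carrying Nras with an LSL-G12D allele and Tyr::CreERT2, grown intradermally in wild type C57BL/6 mice. In these mice the Nras allele and the Cre were carried by the implanted melanoma cells only. The control group (5 tumors) received control drug and the glucocorticoid group (GC, 5 tumors) received clobetasol propionate, a potent synthetic glucocorticoid, and tumors were collected 4 days later. Each tumor carried its own antibody hashtag, and the 5 tumors of a group were pooled into 1 channel of droplet capture, so treatment and channel cannot be told apart. The control channel was loaded with 17100 cells and the GC channel with 3500.

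CD8 T cells recognize peptides on MHC class I through the T cell receptor and kill target cells with granzymes and perforin. In tumors, cells that meet antigen for long take on inhibitory receptors such as PD-1 and the transcription factor TOX, whereas tissue-resident cells keep the integrin αE (CD103, encoded by Itgae) and CD69 and lose the egress receptor S1PR1. Glucocorticoids bind a nuclear receptor encoded by Nr3c1, which switches on genes such as Tsc22d3 and Fkbp5 and restrains inflammatory genes.

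CD8 1 cells were present in every tumor, but in unequal numbers. The control tumors 1 to 5 gave 89, 96, 214, 65 and 53 cells, and the GC tumors gave 4, 6, 18, 5 and 21. Comparisons of genes between treatments therefore used the 5 control tumors and GC tumors 3 and 5, each with at least 10 cells, and the values of GC tumors 1, 2 and 4 are given beside them where they matter. The 517 control cells held 3309734 unique molecular identifiers (UMIs, each counting 1 captured RNA molecule) and the 54 GC cells 482681. The median number of UMIs per cell was 6347 ± 50.9 over the control tumors (mean ± SD of tumor medians, n = 5) and 9179 ± 528 over GC tumors 3 and 5 (n = 2). The difference of 2832 had an exact two-sided permutation p of 0.0476, the smallest that 5 against 2 tumors can give (adjusted p = 0.0714 over the 3 depth measures). All gene levels below are therefore per 10000 UMIs of a cell, and shares of cells with a UMI are given after thinning each cell to 2000 UMIs.

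The label held up against the markers of CD8 T cells. A UMI of Cd8a or Cd8b1, which encode both chains of the CD8 co-receptor, was found in 464 of 517 control cells (89.7%) and in 50 of 54 GC cells (92.6%). A Cd4 UMI was found in 21 control cells and in 0 GC cells, and a UMI of Foxp3, the factor of regulatory T cells, in 4 and 0. After thinning, which left out 18 control and 3 GC cells of lower depth, Cd8a was seen in 60.9% of control CD8 1 cells and in 0.845% of tumor-associated macrophages (TAMs) of the control tumors. The summed level of 16 T cell receptor complex genes was 90.0 to 94.9 per 10000 in control tumors and 89.4 and 91.3 in the 2 GC tumors.

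Macrophage transcripts were also present in these cells, and their amount moved with the treatment. The summed level of 14 macrophage genes was 1.85 to 2.71 per 10000 in control CD8 1 cells, against 178 in control TAMs, and was 0.0576 and 0.119 in the 2 GC tumors, where 12 of the 14 were at 0. The 7 MHC class II genes summed to 2.34 to 2.76 in control and to 0.293 and 0.410 in GC tumors, with H2-Eb1, H2-DMb1 and Ciita at 0. GC tumor 1, with 4 cells, was at 2.54, within the control range, while GC tumors 2 and 4 were at 0.532 and 0. The 8 neutrophil genes summed to 0.767 to 1.19 against 0.171 and 0.254. A cell counted as holding macrophage UMIs with at least 1 UMI of Apoe, C1qa, C1qb, C1qc or Lyz2, and as holding MHC class II UMIs with at least 2. UMIs of the other macrophage genes, Tgfbi and Fn1 among them, did not count. Cells holding either made up 56.3% to 75.5% of CD8 1 cells in the control tumors, 27.8% in GC tumor 3 and 9.52% in GC tumor 5. TAMs made up 19.0% of all control cells and 14.1% of all GC cells. The gene comparisons below were therefore repeated without the cells holding these UMIs, which left out a larger share of control than of GC cells.

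The given markers Cd8b1, Cd8a, Gm44174 and Gm36723 mark CD8 T cells rather than this cluster. Cd8a averaged 5.09 ± 0.469 per 10000 in CD8 1 (SD, n = 5 control tumors) and 7.03 ± 1.11 in CD8 2, and was lower in CD8 1 in 5 of 5 tumors. Cd8b1 was slightly higher in CD8 1 in 5 of 5 tumors, at 5.26 ± 0.236 against 4.64 ± 0.328. The transcript Gm44174 (GRCm38 chr6:71353035-71373284, plus strand), which lies between Cd8b1 and Cd8a on the same strand, was at 2.50 ± 0.456 against 1.91 ± 0.443. Gm36723 (chr12:25303940-25471979, plus strand), a gene model with no function named here, was at 11.4 ± 1.69 against 10.9 ± 3.84. Against CD8 3, none of the 4 markers differed in the same direction in all 3 control tumors with enough cells.

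CD8 1 as a share of CD45+ cells ranged from 11.2% to 17.1% in control tumors, with values of 11.2%, 11.4%, 17.1%, 11.4% and 15.3%. In the GC tumors 1 to 5 it was 22.2%, 8.0%, 16.2%, 22.7% and 26.6%. The groups overlapped, since GC tumor 2 lay below every control tumor and GC tumor 3 within their range. The mean was 13.3% ± 2.74 in control and 19.1% ± 7.25 in GC (SD, n = 5 tumors each), a difference of 5.87 percentage points that the exact two-sided permutation test did not separate from the spread between tumors (p = 0.127, adjusted p = 0.127 over 2 shares). Leaving out GC tumor 2, the difference was 8.66 points (exact p = 0.0159), and as a share of lymphoid cells it was 9.85 points over all tumors (exact p = 0.0317). In tumors with at least 50 cells it was 3.65 points (exact p = 0.482).

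Within the CD8 T cells of clusters CD8 1 to CD8 3, CD8 1 took a smaller share after GC. Control tumors gave 60.5%, 59.6%, 55.6%, 63.1% and 63.1%, and the 3 GC tumors with at least 10 CD8 T cells (2, 3 and 5) gave 50%, 47.4% and 51.2%. These 3 GC values lay below every control value. The means of 60.4% ± 3.10 and 49.5% ± 1.97 differed by -10.9 percentage points (exact two-sided permutation p = 0.0179, the smallest that 5 against 3 tumors can give, adjusted p = 0.0357). Without control tumor 1 or 2 the differences were -10.8 and -11.1 points, with an exact p of 0.0571 in each, where 4 against 3 tumors could reach 0.0286. With a minimum of 5 CD8 T cells, which brings in GC tumors 1 and 4 at 57.1% and 55.6%, the groups overlapped, since GC tumor 1 lay above control tumor 3, and the difference was -8.13 points (exact p = 0.0159). Cluster names were set on gene expression, and some genes differ between treatments, so a share here counts names given to cells.

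**Figure D1:**
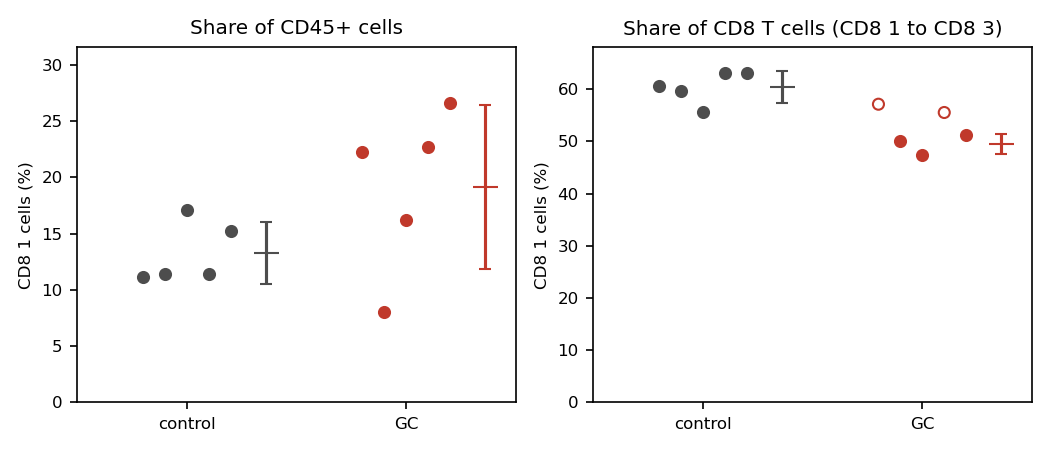
CD8 1 cells of each tumor as a percentage of CD45+ cells (left) and of CD8 T cells (right), with 1 point per tumor and bars for the mean and SD of the tumors used. Open points are tumors with under 10 CD8 T cells. The groups overlap as a share of CD45+ cells, while the 3 GC tumors used in the right panel (47.4% to 51.2%) lie below all 5 control tumors (55.6% to 63.1%).

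The identity of CD8 1 was described against CD8 2 in the 5 control tumors, tumor by tumor. No test was applied, because the clusters were themselves drawn on gene expression. Of 3924 genes measured at 0.5 per 10000 or more in the higher cluster, 595 (15.2%) were higher in CD8 1 in every tumor and 429 (10.9%) were lower in every tumor, and the median difference was 0.06 on the log2(level + 0.1) scale. The genes highest in CD8 1 included the egress receptor S1pr1 and its transcriptional activator Klf2, which stood out from a CD8 2 cluster almost without them. S1pr1 was at 0.862 ± 0.161 in CD8 1 and 0.0594 ± 0.0586 in CD8 2, a mean log2 difference of 2.66 ± 0.73 (SD over 5 tumors). Klf2 was at 2.26 ± 0.668 against 0.454 ± 0.220, a difference of 2.15 ± 0.54.

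Among the 10 largest differences were also Hspa1b, Hspa1a and Hsph1, which encode stress-induced chaperones and belong to no list used here, with log2 differences of 2.17, 2.09 and 1.70. Hspa1a and Hspa1b are near-identical copies, and how reads were split between them is uncertain. Hspa1b ranged from 4.80 to 15.4 per 10000 over the control tumors in CD8 1 and from 0.789 to 3.10 in CD8 2. The remaining genes of the 10 were Rap1gap2, which encodes a GTPase-activating protein for Rap, the polarity gene Pard3, Gas7, the nuclear lamina gene Lmna and the sulfotransferase gene Hs3st3b1.

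Inhibitory receptors and exhaustion factors were lower in CD8 1 than in CD8 2. Of 14 such genes measured, 12 were lower in every control tumor and 1, Cd101, was higher in every one, with a median difference of -1.23 beside 0.06 over all genes measured. Pdcd1, which encodes PD-1, was at 5.80, 5.50, 4.81, 4.24 and 4.14 per 10000 in CD8 1 of control tumors 1 to 5, and at 9.06, 9.28, 9.48, 7.33 and 10.9 in CD8 2. No control tumor had a CD8 1 value within the CD8 2 range. Tox was at 2.46 ± 0.323 against 6.86 ± 2.26 (SD, n = 5), the inhibitory receptor gene Lag3 at 1.33 ± 0.559 against 4.76 ± 0.542, and Ctla4 at 5.00 ± 0.810 against 17.97 ± 6.34. Tnfrsf9, which encodes the activation receptor 4-1BB, was among the 10 lowest genes of CD8 1, at 2.18 ± 0.352 against 11.3 ± 1.56 (log2 difference -2.33). The others were Gpm6b, Setbp1, Ccl1, Penk, Dlg2, Ccl3, Pkp4, Ier5l and Rgs16, from -3.54 for Gpm6b to -2.31 for Rgs16.

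Residency genes were mixed between the clusters. Of 10 measured, 5 were higher in CD8 1 in every control tumor (Itgae, Cdh1, Cd69, Itga1 and Rgs1) and 3 were lower in every one. Over all genes measured the shares were 15.2% and 10.9%. Itgae was at 2.96, 4.53, 4.36, 4.49 and 5.31 per 10000 in CD8 1 and at 1.18, 1.12, 1.54, 1.31 and 1.84 in CD8 2. The lowest CD8 1 tumor thus lay above the highest CD8 2 tumor, and the mean log2 difference was 1.56 ± 0.26. After thinning, an Itgae UMI was seen in 41.9% of control CD8 1 cells and 16.6% of control CD8 2 cells, against 0.845% of control TAMs. Cdh1, which encodes the adhesion molecule E-cadherin, differed by 1.60 ± 0.40 and Cd69 by 0.77 ± 0.33. As cluster means, Itgae and S1pr1 transcripts were thus both higher in CD8 1 than in CD8 2, and whether the same cells held both was not examined.

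Effector genes were lower or similar in CD8 1. Of 19 measured, 8 were lower in every control tumor and 2 (Ctsw and Ccl5) were higher. Over all genes measured the shares were 10.9% and 15.2%. Ifng, which encodes interferon-γ, was at 1.78 ± 0.411 against 4.11 ± 1.40, and the chemokine gene Ccl3 at 1.30 ± 1.10 against 6.00 ± 1.54. Gzmb, which encodes granzyme B, did not differ in the same direction in every tumor, at 4.20 ± 1.14 against 8.18 ± 3.73. Klrk1, which encodes the activating receptor NKG2D, was at 10.8 ± 0.759 against 5.57 ± 0.929 and was higher in 5 of 5 tumors. Tcf7, a factor of stem-like T cells, was at 0.934 ± 0.133 against 0.499 ± 0.280, with a log2 difference of 0.92 ± 0.92 that was positive in all 5 tumors and whose SD equalled its mean.

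Against CD8 3, described in control tumors 2, 3 and 4, CD8 1 had lower levels of interferon response genes. Of 33 interferon response genes measured, 31 were lower in CD8 1 in all 3 tumors and 0 were higher, with a median difference of -2.32, while over all 4052 genes measured 562 (13.9%) were lower and 990 (24.4%) higher, with a median of 0.12. Ifit1, an interferon-induced antiviral gene, was at 0.200, 0.278 and 0.269 per 10000 in CD8 1 and at 9.37, 6.09 and 7.77 in CD8 3. The MHC class I and peptide loading genes followed, with 12 of 15 lower in all 3 tumors and a median of -0.69. Gzmb was at 4.89 ± 0.522 in CD8 1 and 15.96 ± 4.17 in CD8 3 (SD, n = 3).

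On the other side, 6 of 9 stem-like and egress genes were higher in CD8 1 than in CD8 3 in all 3 tumors. Over all genes measured the share was 24.4%. Tcf7 differed by 1.09 ± 0.26 (SD, n = 3), Bach2, which encodes a repressor of effector genes, by 1.23 ± 0.81, and S1pr1 by 0.78. Itgae was higher by 0.74 ± 0.49. The 10 largest differences were led by Sesn1, a stress-response gene, at 2.37 ± 1.89, and again held a chaperone gene, Hspa1a, at 2.12 ± 2.00. Both SDs are nearly as large as the means, since control tumor 3 gave small differences for both genes.

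**Figure D2:**
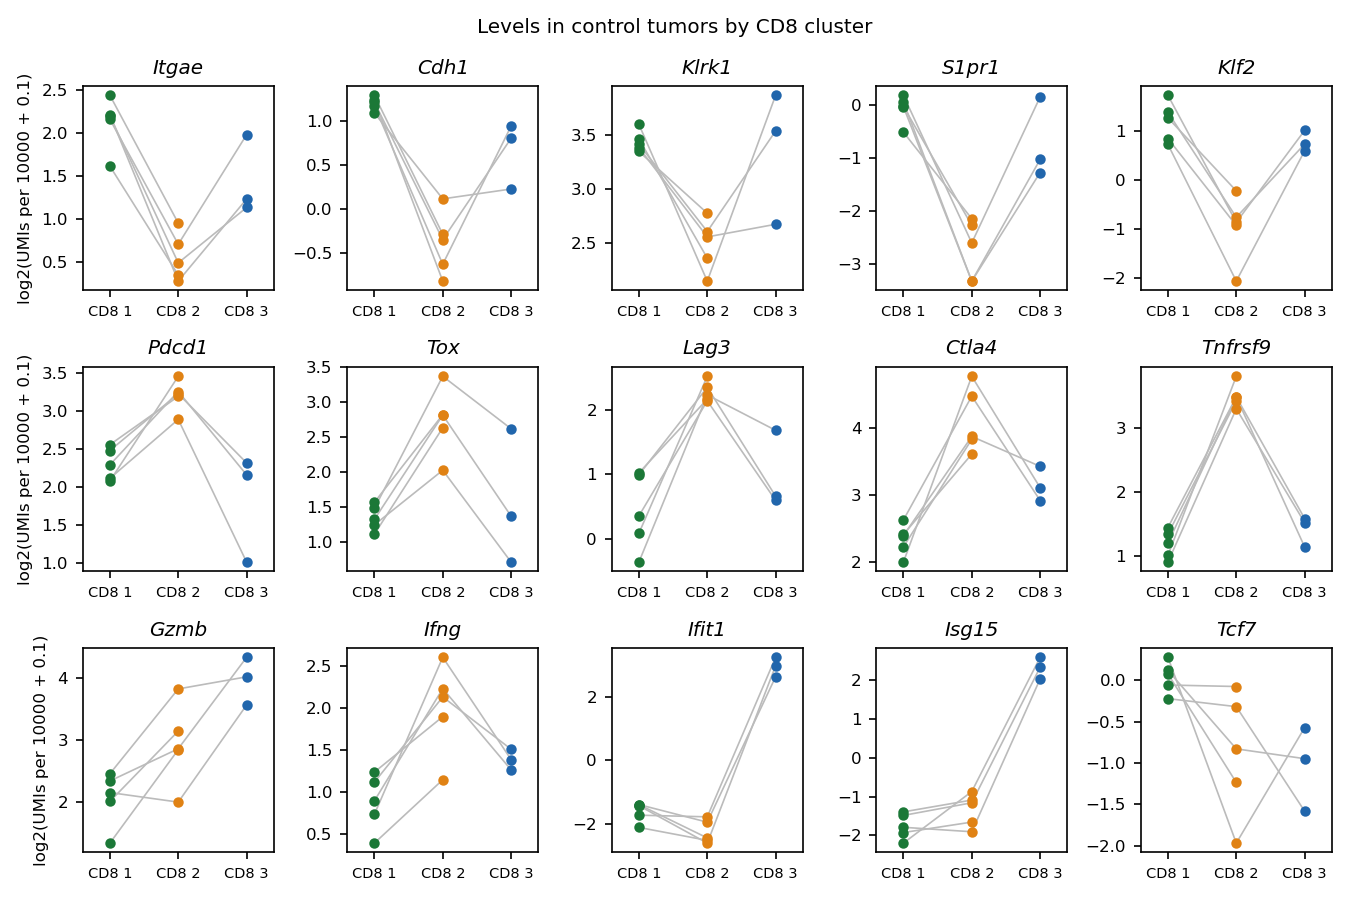
Levels of 15 genes in CD8 1, CD8 2 and CD8 3 of the control tumors, as log2(mean UMIs per 10000 + 0.1), with 1 point per tumor and lines joining the clusters of 1 tumor. Itgae, S1pr1 and Klf2 lie higher in CD8 1 than in CD8 2 in all 5 tumors, Pdcd1, Tox and Tnfrsf9 lie lower, and the interferon gene Ifit1 sets CD8 3 apart from CD8 1.

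GC treatment was then compared with control within CD8 1. The tests covered 6190 genes that averaged 0.2 or more per 10000. At an adjusted p under 0.05, limma called 395 (6.38%), with 162 higher (2.62%) and 233 lower (3.76%). The quasi-likelihood test of edgeR called 222 (3.59%), with 150 higher (2.42%) and 72 lower (1.16%). Both tests called 187 (3.02%), of which 119 (1.92%) rose and 68 (1.1%) fell, and "rose" and "fell" below are kept for genes called by both. The GC and control tumors did not overlap for 1553 genes (25.1%), of which 609 (9.84%) were higher and 944 (15.3%) lower in GC. The median log2 difference over all genes tested was -0.08 by limma. These shares and this median are the background for every list count below. Without the cells that held macrophage or MHC class II UMIs, both tests called 42 genes, 34 of them shared with the 187 in the same direction. Of the 187 genes, 183 could still be tested and all kept their direction, with the median log2 difference moving from 0.98 to 1.00 in 117 risen genes and from -1.22 to -1.11 in 66 fallen genes. The remaining cells are a part of those on which the genes were called, so a kept direction is no independent check. The fits left out the 3 GC tumors with under 10 cells, and with a minimum of 5 cells, which brings in GC tumors 2 and 4, both tests called 139 genes, 104 of them shared.

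Genes known to respond to glucocorticoids were among the rises. Of 14 tested, 5 rose (Tsc22d3, Fkbp5, Txnip, Cxcr4 and Il7r) and 0 fell, and the median log2 difference was 1.00 beside -0.08 over all genes. Tsc22d3, which encodes the anti-inflammatory protein GILZ (chrX:140539528-140600659, minus strand), was at 1.67, 1.51, 1.72, 1.84 and 2.04 per 10000 in control tumors 1 to 5. It was at 6.47 and 8.73 in GC tumors 3 and 5. The groups did not overlap, and the log2 difference was 2.04 ± 0.18 (SE; limma adjusted p = 3.29e-05, edgeR adjusted p = 4.82e-09), a ratio of means of 4.33. GC tumors 1 and 4, with 4 and 5 cells, were at 10.2 and 5.62, but GC tumor 2, with 6 cells, was at 1.74, within the control range, and with a minimum of 5 cells Tsc22d3 was not called by both tests.

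Fkbp5 (chr17:28399094-28517527, minus strand) encodes a co-chaperone of the glucocorticoid receptor. It was at 0.565, 0.822, 0.750, 0.845 and 0.539 in control tumors and at 3.60 and 1.73 in GC tumors 3 and 5, with 4.78, 1.19 and 1.99 in GC tumors 1, 2 and 4. All 5 GC tumors lay above all 5 control tumors, and the log2 difference was 1.71 ± 0.28 (limma adjusted p = 0.00284). Tsc22d3 and Fkbp5 stayed called without the cells holding macrophage or MHC class II UMIs.

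Il7r encodes the receptor for the survival cytokine IL-7 (chr15:9505788-9530176, minus strand). It was at 4.15, 4.89, 6.24, 5.50 and 5.19 per 10000 in control tumors and at 17.6 and 13.8 in GC tumors 3 and 5. The 3 small GC tumors were at 17.3, 19.5 and 17.3, so that every GC tumor stood at more than 2 times the highest control tumor. The log2 difference was 1.58 ± 0.16 (limma adjusted p = 1.23e-04, edgeR adjusted p = 1.35e-07), a ratio of means of 3.02, and Il7r kept its call with a minimum of 5 cells, without any 1 tumor and without the cells holding macrophage UMIs. After thinning, an Il7r UMI was seen in 55.7% of control and 78.4% of GC CD8 1 cells, against 23.5% and 23.3% of TAMs, which express Il7r themselves at 0.367 times the CD8 1 level.

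Cxcr4, which encodes a chemokine receptor that holds lymphocytes in tissue and marrow, was at 1.03 to 1.75 in control and at 2.55 and 5.94 in GC tumors 3 and 5 (log2 difference 1.48 ± 0.29, limma adjusted p = 0.00771). Txnip, which encodes an inhibitor of thioredoxin and of glucose uptake, was at 2.30 to 2.68 in control and at 6.27 and 3.86 in GC (0.98 ± 0.18, limma adjusted p = 0.00601, not called by both without GC tumor 3). Txnip has an antisense neighbor, and reads of the pair can be told apart only if strand was used in counting, which is not stated in the sources used here. The receptor gene Nr3c1 itself was at 8.10 ± 1.06 (SD, n = 5) in control and at 5.82 and 8.69 in GC (log2 difference -0.18 ± 0.16, limma adjusted p = 0.560).

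The promoters of the glucocorticoid list were searched for the palindromic receptor motif GNACANNNTGTNC (a half-site, 3 bases and its reverse complement), in 300 bases from 250 before to 50 after the start site. The motif reads the same on both strands. It was present in 156 of 32851 RefSeq windows (0.475%), and in windows of 3 of the 16 listed genes that had one: Txnip, Mt1 and Sgk1. Those 16 genes had 25 windows. The 0.475% is a share of windows, whereas listed and called genes are counted per gene, so the 2 are unlike measures. Of the 187 genes called by both tests, 146 had a window and 2 held the motif, Txnip and A230072C01Rik. The 250 bases before the start of the 3 listed genes are shown to place the motif, which is in capitals (RefSeq, GRCm38.p6, plus strand, Txnip chr3:96557707-96557956, Mt1 chr8:94178839-94179088, Sgk1 chr10:21993640-21993889).
Txnip: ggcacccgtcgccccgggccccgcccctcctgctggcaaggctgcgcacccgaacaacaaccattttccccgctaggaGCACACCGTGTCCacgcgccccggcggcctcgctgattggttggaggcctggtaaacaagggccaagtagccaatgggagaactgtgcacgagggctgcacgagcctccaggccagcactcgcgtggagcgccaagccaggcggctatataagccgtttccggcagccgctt
Mt1: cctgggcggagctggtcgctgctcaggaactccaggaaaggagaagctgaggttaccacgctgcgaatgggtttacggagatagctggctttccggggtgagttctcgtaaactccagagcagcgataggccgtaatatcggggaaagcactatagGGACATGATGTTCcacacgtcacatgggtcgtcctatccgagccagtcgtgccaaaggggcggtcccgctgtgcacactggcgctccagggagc
Sgk1: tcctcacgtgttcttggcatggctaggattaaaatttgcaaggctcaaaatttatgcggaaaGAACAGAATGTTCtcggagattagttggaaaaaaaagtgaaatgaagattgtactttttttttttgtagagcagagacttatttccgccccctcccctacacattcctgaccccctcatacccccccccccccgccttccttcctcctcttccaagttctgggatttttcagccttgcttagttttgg
The motif was centered 165 bases before the start site in Txnip, 87 in Mt1 and 181 in Sgk1. Of the 3 genes only Txnip rose in CD8 1. The metallothionein gene Mt1 and the kinase gene Sgk1 had log2 differences of 1.01 and -0.59 with limma adjusted p of 0.0801 and 0.327. A match is a description of these letters, and the called genes Tsc22d3, Fkbp5 and Il7r had none in these windows.

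Some inhibitory receptor genes rose. Of 15 genes tested, 3 rose (Pdcd1, Havcr2 and Tigit), 0 fell and 12 did not pass both tests, with a median log2 difference of 0.06. Pdcd1 (chr1:94038305-94052553, minus strand) was at 4.14 to 5.80 per 10000 in control tumors, as listed above, and at 11.2 and 13.5 in GC tumors 3 and 5. It differed by 1.32 ± 0.16 on the log2 scale (limma adjusted p = 4.39e-04, edgeR adjusted p = 9.47e-07), a ratio of means of 2.52, and stayed called without the cells holding macrophage UMIs and without any 1 tumor. GC tumors 2 and 4 were at 14.5 and 11.1, and GC tumor 1, with 4 cells, was at 4.47, within the control range. In GC tumors 3 and 5 the Pdcd1 level of CD8 1 thus lay above the highest control value of CD8 2, which was 10.9. Pdcd1 was higher with GC in CD8 2 as well, as given below, so CD8 1 did not thereby pass CD8 2 under GC. After thinning, a Pdcd1 UMI was seen in 51.9% of control and 76.5% of GC CD8 1 cells, against 0.423% of control TAMs. In CD8 2 it was seen in 76.6% of control and 84.8% of GC cells.

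Tigit, which encodes another inhibitory receptor, was at 0.840, 0.486, 0.518, 0.404 and 0.312 in control tumors and at 1.60 and 1.39 in GC tumors 3 and 5 (1.43 ± 0.29, limma adjusted p = 0.0102). Havcr2, which encodes TIM-3, was at 2.09, 2.81, 3.17, 3.78 and 1.91 in control and at 7.68 and 4.14 in GC (1.05 ± 0.27, limma adjusted p = 0.0316). Both calls were fragile, Tigit being lost without GC tumor 3 or GC tumor 5 and Havcr2 without control tumor 1, 2 or 5 or GC tumor 3. Tox was at 2.06 to 2.86 in control and at 3.10 and 2.10 in GC (log2 difference 0.06 ± 0.19, limma adjusted p = 0.883). Lag3 moved the other way by limma alone, at 0.680 to 1.93 in control and 0.540 and 0.345 in GC (-1.33 ± 0.34, limma adjusted p = 0.0343, edgeR adjusted p = 0.113). Entpd1, which encodes the ectoenzyme CD39, had a log2 difference of -0.25 ± 0.23 (limma adjusted p = 0.565).

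Effector genes changed in both directions. Of 21 tested, 2 rose (Serpinb9 and Serpinb6b) and 2 fell (Tbx21 and Xcl1), with a median of 0.17. Tbx21, which encodes T-bet, the master factor of type 1 effector cells (chr11:97098071-97115331, minus strand), was at 4.16, 3.98, 3.70, 4.20 and 4.80 per 10000 in control and at 0.796 and 1.03 in GC tumors 3 and 5. The log2 difference was -2.08 ± 0.17 (limma adjusted p = 3.29e-05, edgeR adjusted p = 4.86e-06), and the control mean was 4.56 times the GC mean. GC tumors 1 and 2 were at 2.10 and 1.60, below every control tumor, whereas GC tumor 4, with 5 cells, was at 5.53, above every control tumor, and Tbx21 was not called by both tests with a minimum of 5 cells. The gene is almost absent from TAMs (0.00105 times the CD8 1 level), and the call held without the cells holding macrophage UMIs.

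Xcl1, which encodes a chemokine for cross-presenting dendritic cells, was at 0.708, 0.840, 0.546, 0.382 and 0.291 in control and at 0 and 0.0452 in GC tumors 3 and 5. With 1 UMI in those 2 GC tumors, the ratio of pooled control to GC level was 22.9 with a counting interval of 4.06 to 908, and Xcl1 was not called by both tests without GC tumor 3 or GC tumor 5. Serpinb9, which encodes an inhibitor of granzyme B that protects the killer cell, was at 2.48, 1.27, 1.77, 1.35 and 1.06 in control and at 3.46 and 6.03 in GC (1.53 ± 0.28, limma adjusted p = 0.00593). Its neighbor on the same chromosome, Serpinb6b, differed by 1.42 ± 0.23. These serpin genes belong to a family of close copies, and reads may be split among them.

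Other effector transcripts gave no shared call. Gzmb was at 2.42, 4.34, 5.38, 4.95 and 3.92 in control and at 3.60 and 4.23 in GC (log2 difference -0.06 ± 0.24, limma adjusted p = 0.920). Ifng was at 1.22 to 2.26 in control and at 0.430 and 1.02 in GC, with GC tumors 1, 2 and 4 at 0.248, 0 and 0.403. All 5 GC tumors were below the lowest control tumor, but the change of -1.26 ± 0.29 passed by limma (adjusted p = 0.0204) and not by edgeR (adjusted p = 0.319). Fasl, which encodes a death ligand, was called by edgeR alone (adjusted p = 0.0210), at 2.51 to 3.26 in control and at 3.80 and 5.13 in GC.

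Homing receptors included both rises and falls. Among 10 chemokine and sphingosine receptors tested, 1 rose (Cxcr4) and 3 fell (S1pr1, Ccr2 and Cxcr6), with a median of -0.50. Over all genes tested 1.92% rose and 1.1% fell, with a median of -0.08. S1pr1 (chr3:115710433-115715072, minus strand), which set CD8 1 apart from CD8 2, was at 0.597, 0.872, 1.03, 0.934 and 0.876 in control tumors and at 0.204 and 0.195 in GC tumors 3 and 5 (log2 difference -1.67 ± 0.25, limma adjusted p = 0.00188). GC tumors 1 and 4 were at 0, but GC tumor 2 was at 0.648, within the control range, and S1pr1 was not called by both tests without GC tumor 5, with a minimum of 5 cells or without the cells holding macrophage UMIs. Ccr2, which encodes the receptor for CCL2, was at 4.62 to 6.19 in control and at 2.85 and 2.09 in GC (-1.17 ± 0.16, limma adjusted p = 0.00129), and the 3 small GC tumors were lower still, at 0.747, 0.586 and 1.64. TAMs hold Ccr2 at 1.96 times the CD8 1 level.

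Cxcr6, which encodes the receptor for CXCL16 on resident T cells, was at 9.74, 8.92, 8.98, 7.88 and 8.73 in control and at 5.58 and 4.81 in GC (-0.76 ± 0.12, limma adjusted p = 0.00324). GC tumors 1 and 4 were at 3.34 and 5.66, but GC tumor 2 was at 8.67, within the control range, and the call by both tests was lost with a minimum of 5 cells (limma adjusted p = 0.119), without GC tumor 5 and without the cells holding macrophage UMIs. The residency list as a whole had 0 risen and 2 fallen genes (Cxcr6 and Cdh1) of 10 tested, with a median of -0.35. Cdh1 was at 2.04 to 2.36 in control and at 1.07 and 1.20 in GC (-0.90 ± 0.17, limma adjusted p = 0.00592), a call by both tests that was lost without any 1 of 6 of the 7 tumors, and GC tumor 1 was at 3.28, above every control tumor. Itgae was at 3.69 and 2.20 in GC tumors 3 and 5, against the control range of 2.96 to 5.31 (log2 difference -0.56 ± 0.22, limma adjusted p = 0.152), and GC tumors 1, 2 and 4 were at 2.48, 1.89 and 2.32. After thinning, an Itgae UMI was seen in 41.9% of control and 37.3% of GC cells. Cd69 was at 2.33 and 6.76 in GC tumors 3 and 5, on either side of the control range of 3.25 to 4.47 (log2 difference 0.08 ± 0.29, limma adjusted p = 0.900, -0.67 without GC tumor 5).

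Stem-like genes other than Il7r and S1pr1 did not pass both tests, with 1 risen and 1 fallen of 9 tested and a median of -0.13. Tcf7 was at 0.757 to 1.11 in control and at 0.946 and 0.868 in GC (log2 difference -0.03 ± 0.21, limma adjusted p = 0.955). Lef1, a partner of Tcf7, was called by limma alone, at 1.07 to 1.48 in control and at 0.483 and 0.630 in GC (adjusted p = 0.00776 by limma and 0.185 by edgeR).

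Itgav was the only gene of the TGF-β list that rose, with 1 risen and 0 fallen of 19 tested and a median of -0.17. It encodes integrin αV, which binds latent TGF-β (chr2:83724397-83806916, plus strand). Its level was 2.89, 2.78, 2.79, 2.51 and 3.18 per 10000 in control tumors and 9.15 and 9.69 in GC tumors 3 and 5, with 21.2, 3.38 and 8.15 in GC tumors 1, 2 and 4. Every GC tumor lay above every control tumor. The log2 difference of 1.70 ± 0.14 (limma adjusted p = 3.29e-05, edgeR adjusted p = 4.82e-09) stayed called with a minimum of 5 cells, without any 1 tumor and without the cells holding macrophage UMIs. In control tumors Itgav had been lower in CD8 1 than in CD8 2, at 2.83 ± 0.242 against 10.6 ± 3.06. Smad2 was lower by limma alone, at 1.05 ± 0.308 (SD, n = 5) in control and at 0.243 and 0.498 in GC tumors 3 and 5 (-1.31 ± 0.30, limma adjusted p = 0.0201, edgeR adjusted p = 0.208). The ligand gene Tgfb1 was at 2.36 to 5.31 in control and at 1.61 and 2.08 in GC (log2 difference -0.81 ± 0.24, limma adjusted p = 0.0631), and Smad7, which encodes an inhibitor of the pathway, had a difference of 0.00 ± 0.22 (limma adjusted p = 0.995).

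**Figure D3:**
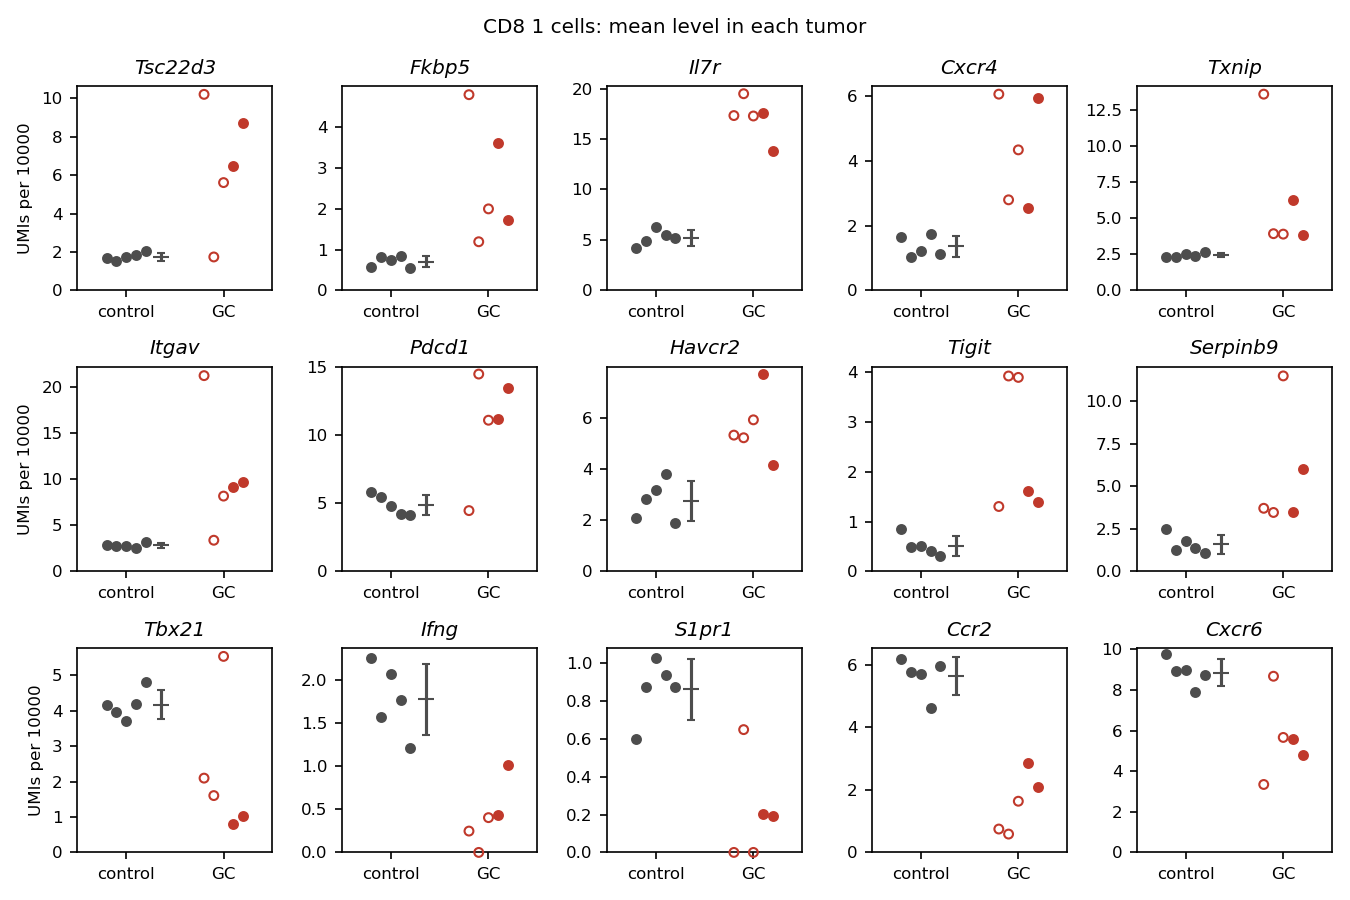
Mean level of 15 genes in CD8 1 of each tumor, in UMIs per 10000 on a linear axis, with control tumors on the left, GC tumors on the right and a bar for the control mean and SD. Filled GC points are tumors 3 and 5, which entered the fits, and open points are tumors 1, 2 and 4 with under 10 cells. All 5 GC tumors lie above all control tumors for Il7r, Fkbp5 and Itgav, whereas for Tbx21 GC tumor 4 lies above the control range.

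Among cytokine receptors 1 rose (Il7r) and 1 fell (Il18r1) of 16 tested. Il18r1, which encodes a receptor chain for IL-18, was at 12.6 to 17.8 in control and at 8.83 and 8.11 in GC (-0.75 ± 0.13, limma adjusted p = 0.00409). GC tumor 2 was at 14.5, within the control range, and the call was lost with a minimum of 5 cells (adjusted p = 0.128 by limma and 0.0503 by edgeR), without GC tumor 5 and without the cells holding macrophage UMIs. Of 9 NK receptor genes, Klrb1c rose (2.09 ± 0.38, limma adjusted p = 0.00513) and Cd226, which encodes the co-stimulatory receptor DNAM-1, fell from 6.69 to 9.32 in control to 4.15 and 4.79 in GC (-0.83 ± 0.15, limma adjusted p = 0.00592). Klrb1c, which encodes NK1.1, remained a low gene at 0.611 and 0.905 per 10000 in GC. The summed level of 8 NK cell markers was 1.07 to 4.49 in control and 2.61 and 5.18 in GC, with Ncr1, a defining NK marker, at 0 in GC, and the part of NK cells in these values was not tested.

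The survival and cell cycle lists held risen genes and no fallen ones, where over all genes tested 1.92% rose and 1.1% fell. Of 17 survival and death genes, 2 rose: Bbc3, which encodes the pro-apoptotic protein PUMA (1.71 ± 0.35), and Birc3, which encodes an inhibitor of apoptosis (0.69 ± 0.18). The median of the 17 was 0.28, and 5 were higher and 2 lower in GC without overlap, beside 9.84% and 15.3% of all genes tested. Of 7 cell cycle genes, only Ccnd3, which encodes cyclin D3, rose, from 9.04, 8.65, 9.03, 6.71 and 6.27 in control to 18.3 and 17.6 in GC (1.19 ± 0.15, limma adjusted p = 8.14e-04, edgeR adjusted p = 2.39e-06). GC tumors 1, 2 and 4 were at 20.7, 15.1 and 18.8, above every control tumor. The median of the 7 cell cycle genes was -0.42. Of 23 AP-1, NF-κB and immediate early genes, only the phosphatase gene Dusp2 rose (1.21 ± 0.21, limma adjusted p = 0.00395) and 0 fell.

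Interferon and antigen presentation genes gave 1 call by both tests in each list, where over all genes tested 1.92% rose and 1.1% fell. Of 27 interferon response genes 0 rose and 1 fell (Ifi27l2a, -1.97 ± 0.41), with a median of -0.38 beside -0.08 over all genes. Limma called 3 of them lower, and 5 were lower in GC without overlap. Of 15 MHC class I genes 0 rose and 1 fell (Tap2, a peptide transporter gene, -1.25 ± 0.20), with a median of -0.29. Limma called 3 of these lower, and 8 were lower in GC without overlap, beside 15.3% of all genes tested. No gene was called by both tests among 15 glycolysis genes, with a median of -0.11, nor among 16 T cell receptor complex genes, with a median of -0.07. The 4 given markers likewise had 0 calls, with log2 differences of -0.03 ± 0.14 for Cd8b1 and 0.09 ± 0.15 for Cd8a.

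The 10 largest rises were Hhat, Serpina3f, Sv2c, Tmem106b, Cdk14, Klrb1c, Tsc22d3, Zyg11b, Serpina3g and Irs2. Hhat, which encodes the acyltransferase of hedgehog proteins, went from 0.0126 to 0.0410 per 10000 in control to 2.23 and 0.520 in GC, a log2 difference of 3.26 ± 0.47 (limma adjusted p = 0.00165). Serpina3f and Serpina3g, which encode serine protease inhibitors and are close copies of each other, differed by 2.75 ± 0.40 and 1.89 ± 0.26. Sv2c, a synaptic vesicle gene, was at 0.254 to 0.593 in control and 2.66 and 1.89 in GC (2.28 ± 0.31, limma adjusted p = 0.00104). Zyg11b, which encodes a ubiquitin ligase adaptor, was at 1.30 to 2.09 against 9.08 and 5.40. Irs2, an adaptor of insulin signaling, was called by both tests with all tumors and not without GC tumor 3. Irs2 was at 0.114 to 0.318 in control tumors and at 3.66, 0 and 1.87 in GC tumors 1, 2 and 4. The rise of Cdk14 was seen in GC tumors 3 and 5 only, at 0.547 and 0.843. Cdk14 was at 0 in GC tumors 1, 2 and 4, below the control range of 0.0211 to 0.198. Cdk14 (14.1 times) and Irs2 (5.20 times) were held at higher levels by control TAMs than by CD8 1.

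Ribosomal protein genes formed a large share of the rises. This group was chosen after its values were seen. Of 78 tested, 32 rose and 0 fell, so that they made up 26.9% of the 119 risen genes and 1.26% of the genes tested, and 87 risen genes belonged to other groups (1.42% of the other genes tested). Their median log2 difference was 0.44 by limma, 0.37 under median-of-ratios scaling and 0.47 by limma in CD8 2. They took 9.87% to 10.8% of all UMIs of CD8 1 in the control tumors and 11.8% to 13.2% in the 5 GC tumors. The same share was 6.92% to 8.04% in TAMs of control tumors and 8.50% to 12.2% in TAMs of the 4 GC tumors that had any. The GC channel thus held more ribosomal protein RNA per UMI in macrophages too, and the part of the channel in the CD8 1 values was not tested.

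The 10 largest falls were Rap1gap2, Tgfbi, H2-Ab1, Il1b, Xcl1, Il1rn, H2-Aa, Tbx21, Ier3 and Fn1, and most of them are genes of myeloid cells. Tgfbi, H2-Ab1, Il1b, Il1rn, H2-Aa, Ier3 and Fn1 were each 20.6 to 95.4 times as high in control TAMs as in control CD8 1. Over all genes called by both tests, 9 of 68 fallen genes (13.2%) and 4 of 119 risen genes (3.36%) were at least 5 times as high in TAMs, against 133 of 6190 genes tested (2.15%). Tgfbi was at 0.473 to 0.713 in control and at 0 in GC tumors 3 and 5, at least 5.60-fold lower when GC is set to 3 counts over both tumors. These falls moved with the macrophage marker sums given above, and the part of macrophage RNA in them was not tested. All 4 MHC class II genes tested fell, with a median log2 difference of -2.08 (-2.01 with H2-Eb1, which is at 0 in GC, at its bound), and so did 2 of 3 macrophage genes and the 1 neutrophil gene tested, Il1b. H2-Ab1 was at 2.54 in GC tumor 1, above the control range of 0.622 to 0.766.

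Rap1gap2, in contrast, was about as high in TAMs as in CD8 1 (0.957 times). It was at 1.25, 1.02, 1.39, 1.61 and 0.760 per 10000 in control and at 0.0537 and 0.107 in GC tumors 3 and 5, a log2 difference of -2.83 ± 0.29 (limma adjusted p = 1.23e-04, edgeR adjusted p = 3.44e-04) that stayed called without the cells holding macrophage UMIs. With 3 UMIs in those GC tumors, the pooled ratio was 14.1 with a counting interval of 4.78 to 68.6. GC tumors 1 and 4 were at 0, but GC tumor 2, with 6 cells, was at 0.631, near the lowest control tumor. Like S1pr1, Rap1gap2 was one of the genes highest in CD8 1 relative to CD8 2 in control tumors.

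Across the 44 named genes called by both tests, 21 stayed called in every fit without 1 tumor that still tested them. Of these, Klrb1c, Cdk14 and Bbc3 were under the level filter without GC tumor 5, and Hhat without GC tumor 3. They were not tested there, so their calls were not shown to hold without those tumors. Without GC tumor 3 the 15 genes not called were Irs2, Xcl1, Il1rn, H2-Aa, Ier3, Fn1, Havcr2, Tigit, Cdh1, Cd226, Txnip, Ifi27l2a, Birc3, Tap2 and H2-Eb1. Without GC tumor 5 the 17 not called were Il1b, Xcl1, Il1rn, H2-Aa, Ier3, Fn1, S1pr1, Tigit, Cxcr6, Cdh1, Serpinb6b, Il18r1, Ccr2, Dusp2, Tap2, H2-Eb1 and Cd74. Leaving out 1 control tumor ended 2 to 4 calls, all among Havcr2, Tap2, Cdh1, Birc3 and Cd226. With a minimum of 5 cells, 33 of the 41 genes still tested stayed called, and the 8 that did not were Irs2, Tsc22d3, Tbx21, S1pr1, Cxcr6, Il18r1, Birc3 and Tap2. Without the cells holding macrophage or MHC class II UMIs, 16 of 40 stayed called: Il7r, Pdcd1, Itgav, Tsc22d3, Fkbp5, Ccnd3, Dusp2, Zyg11b, Tmem106b, Sv2c, Serpina3f, Hhat, Rap1gap2, Tbx21, Tgfbi and Il1b. Those cells were chosen partly by MHC class II UMIs, so leaving them out itself limits the levels of H2-Ab1 and Cd74, and Tgfbi UMIs were not used to choose them. Fewer cells remained, above all in control tumors, and the part of cell number in the lost calls was not tested.

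**Figure D4:**
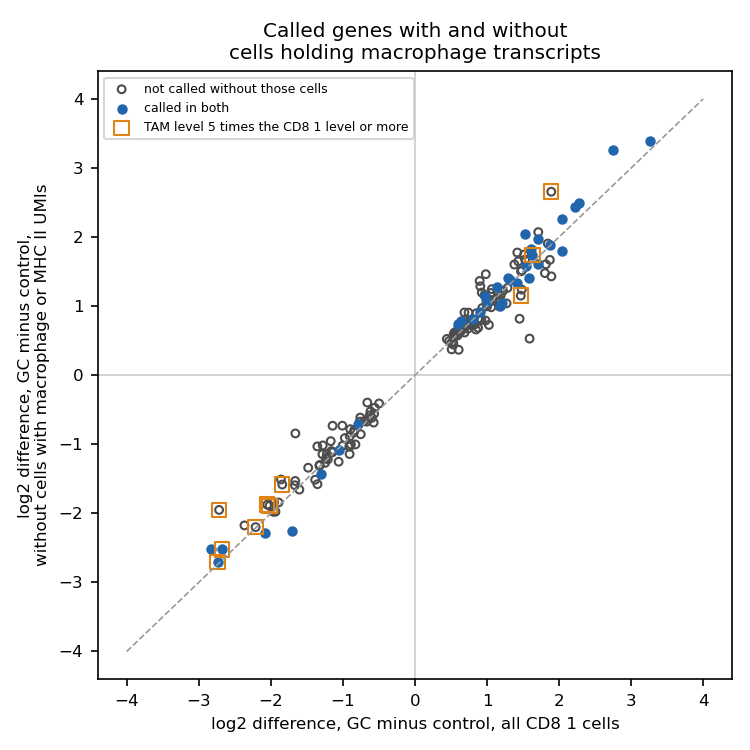
Log2 difference, GC minus control, of the genes called by both tests in CD8 1, with all cells (horizontal axis) and without cells holding macrophage or MHC class II UMIs (vertical axis). Blue points are genes called in both settings and orange squares are genes at least 5 times as high in TAMs as in CD8 1. The 183 genes that could be tested again keep their direction, and 34 keep their call.

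The change with GC in CD8 1 was set against that in CD8 2 by comparing the CD8 1 minus CD8 2 difference of each tumor between treatments with limma. Of 5709 genes, 0 were called, with 567 at an unadjusted p under 0.05 and a smallest adjusted p of 0.118. Both clusters share their tumors, so their values are given side by side only. Tsc22d3 differed by 2.04 in CD8 1 and 1.82 in CD8 2, Il7r by 1.58 and 1.51, and Itgav by 1.70 and 1.72. The difference between clusters was 0.22 ± 0.39 (SE) for Tsc22d3, 0.07 ± 0.38 for Il7r and -0.02 ± 0.45 for Itgav. Tbx21 differed by -2.08 in CD8 1 and -1.05 in CD8 2, a difference between clusters of -1.03 ± 0.33 that did not pass the adjustment (limma adjusted p = 0.310). Pdcd1 differed by 1.32 and 0.78, with a difference between clusters of 0.54 ± 0.35.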

How the data were processed

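Live CD45+ cells of 5 control and 5 GC tumors were profiled with the 10x Genomics 3′ kit (v3.1) and hashtags. According to the submitters' notes and the study's methods, the authors used Cell Ranger 7.1.0 on mm10 with introns included, and Seurat 5.0.3 in R 4.3.1 to assign hashtags, remove multiplets of different tumors and outlier cells, and name clusters. No further doublet caller was run. Use of strand in counting is not given in the sources used here.

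The deposited expression values are the natural log of 1 plus UMIs per 10000 of a cell, and the deposited cell table gives the count of UMIs and of genes and the percent of mitochondrial UMIs of each cell. Whole UMIs were recovered for all 10330441 values above 0 within a tolerance of 0.01, in 32285 genes, and 0 barcodes were shared between channels. There were 0 unused columns of other samples.

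The tumor was the replicate, identified by hashtag and channel, and replicate numbers are only names. The members, gene lists and tests were chosen with earlier results of these data known. Means per tumor were compared as log2(mean UMIs per 10000 + 0.1) with limma 3.58.1 (trended, robust) in R 4.3.3, in tumors with at least 10 CD8 1 cells and over genes averaging 0.2 or more, at a Benjamini-Hochberg adjusted p under 0.05. This scale understates changes of low genes. Summed UMIs were tested with edgeR 4.0.16 (quasi-likelihood) and with DESeq2 1.42.0. Named genes were the 10 largest rises and falls called by both limma and edgeR, list members called by limma, and fixed genes of interest. Exact intervals are at 95% and cover counting error only. Shares and depth were compared by exact two-sided permutation of tumors with Python 3.11.15. Steps were tested on simulated data, where limma alone made more false calls than its threshold allows while calls by both tests stayed near it, so a gene called by limma alone is the weaker call. P-values measure the spread between tumors of 1 pool per group. Coordinates are GRCm38 (GENCODE vM21). The hashtag libraries were not analysed further here.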

Additional observations from a re-analysis of the deposited data

Results flagged for a closer look

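Of 80 groups of tumors examined, 5 (6.25%) held a tumor far from the others, about the 1 in 20 that chance gives. The groups were of control tumors, except that the share of CD45+ cells was also examined in the GC tumors. Klrb1c in CD8 1 was highest in control tumor 2, at 0.246 per 10000 against 0.0566 to 0.0789 in the other control tumors. Il18r1 was highest in control tumor 1, at 17.8 against 12.6 to 14.1. Nr3c1 was highest in control tumor 4, at 9.94 against 7.32 to 7.91. Smad7 was lowest in control tumor 1, at 3.29 against 4.57 to 4.93. Gm44174 was highest in control tumor 4, at 3.28 against 2.17 to 2.48.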

How the results depend on the processing

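The 395 genes called by limma became 231 with no filter on low values, 151 with at least 5 cells per tumor, 844 with at least 20, 42 with tumors weighted by cells and 46 without cells holding macrophage or MHC class II UMIs. On summed UMIs, edgeR called 222, DESeq2 199, edgeR with at least 3 cells 218, edgeR with at least 5 cells 235, and edgeR without the macrophage-positive cells 101. Leaving out 1 tumor gave 218 to 1250 limma calls, the 844 and 1250 being without GC tumor 3 and GC tumor 5, where the single GC tumor is assumed to vary like the control tumors. Of the calls, 41.0% were higher in GC by limma, 67.6% by edgeR, 74.9% by DESeq2, 74.3% on averaged deposited log values and 24.7% with cells thinned to 2000 UMIs.

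The 187 genes called by both tests became 77 after thinning (57 shared) and 42 without the macrophage-positive cells, and 119 to 226 without 1 tumor (119 without GC tumor 5). The settings for both tests together, and the 2 edgeR settings with at least 5 cells and without macrophage-positive cells, were chosen after seeing the data. The 0 genes called for a treatment difference between CD8 1 and CD8 2 became 2 with a pseudocount of 1, and 0 to 17 without 1 tumor (17 without GC tumor 5).

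The share of CD45+ cells differed by 9.85 points over lymphoid cells and by 4.01 to 8.66 points without 1 tumor. The share of CD8 T cells differed by -12.1 to -9.78 points without 1 tumor. UMIs per cell differed by 2459 to 3205 and genes per cell by 424 to 669 without 1 tumor, where no p under 0.05 can be reached. The Cd69 difference ran from -0.67 without GC tumor 5, where it changed sign, to 0.83 without GC tumor 3. The cause of these shifts was not tested. Over 74 named genes and 1578 alternative values, 1233 kept their side of the threshold, 306 lost the call and 38 gained it. In 1 more the sign changed between values of which 1 was called. Sign changes between values that were both not called are counted among the 1233. Tcf7, at -0.03 by limma and 0.13 by edgeR, is an example. The 57 named genes called by limma kept their sign in all 1204 of their values. They were picked by that call and refitted on the same tumors, so a kept sign is no independent check.

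No paired analysis was possible because replicate numbers name hashtags within separate pools and link no tumors. Depth is limited, with 39 cells in GC tumors 3 and 5 together.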

Other observations

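The T cell receptor segment Trav5-1, chosen after its values were seen, was found in 1 tumor only among CD8 1 cells. In control tumor 3 a Trav5-1 UMI was seen in 20 of 214 CD8 1 cells (9.35%, exact 95% interval 5.80% to 14.1%), in 8 of 114 CD8 2 cells (7.02%) and in 4 of 57 CD8 3 cells (7.02%), against 1 of 865 other cells of the same tumor. In the other 9 tumors it was seen in 0 of 357 CD8 1 cells, which allows up to 0.840% of cells with such a UMI and sets no limit on the cells that carry the segment. Few receptor segments are captured by this 3′ method: any Trav UMI was seen in 112 of 571 CD8 1 cells (19.6%) and any Trbv UMI in 78 (13.7%), against 0.131% of TAMs for Trbv. The most frequent Trbv segment, Trbv2, was seen in 25 cells of 8 tumors. Segments of 1 family are close in sequence, and no clonotypes were measured here.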
